A study of Saccharomyces cerevisiae with 6 samples.

Results

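Expression of 31 genes of ergosterol synthesis, out of 6256 genes on the array, was compared between YΔGP/XK/XI, a xylose-fermenting strain labelled as *PHO13* deleted, and its control strain YΔG/XK/XI. The genes were chosen by name as a pathway list and not by a cut on their values, though earlier results of these data were known. They were 9 genes of the mevalonate and isoprenoid steps, 3 of the squalene steps, 11 of the late sterol steps, 2 electron donors, 3 regulators and 3 genes of sterol esterification and transport. Both strains derive from YPH499, a haploid laboratory strain of *S. cerevisiae* of mating type a with *ura3*, *trp1*, *lys2*, *leu2*, *his3* and *ade2* mutations. Both lack *GRE3*, the aldose reductase gene, overexpress the xylulokinase gene *XKS1* from the *TDH3* promoter, and carry many copies of the *Orpinomyces* xylose isomerase gene *xylA* behind the *PGK1* promoter in δ sequences. YΔGP/XK/XI additionally has *PHO13* replaced by *KanMX*, a drug marker that the control strain YΔG/XK/XI does not carry, so the loss of the gene and the marker cannot be told apart. Cells grown aerobically in YPD were moved to YP medium with 50 g/L xylose in closed bottles. The authors describe this fermentation as oxygen-limited, and RNA was taken from it at 9 h. One array was run for each of 3 runs of each strain.

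Ergosterol is the main sterol of the yeast plasma membrane, where it takes the place that cholesterol has in animal cells. The mevalonate steps turn acetyl-CoA into farnesyl diphosphate, with HMG-CoA reductase as the main control point. The squalene steps join farnesyl diphosphate to squalene, oxidize it and close the rings to lanosterol. The late steps remove methyl groups from lanosterol, giving zymosterol, and then modify the ring system and the side chain until ergosterol is reached. Several of these steps need molecular oxygen and heme, and the transcription factors Upc2 and Ecm22 activate many *ERG* genes when sterols run low.

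The values are intensities of a single-colour array on a log2 scale, with the 75th percentile of each array subtracted, so that 0 is a probe at the 75th percentile. Each gene had 1 probe in 7 spots. All 31 probes were well above background on all 6 arrays, and no filter was needed. The SD between the spots of these probes within an array had a median of 0.0494 on the log2 scale. The comparison was fitted with limma over all 6256 genes, and those with a Benjamini-Hochberg adjusted p under 0.05 are referred to as called. Whether the runs began from separate precultures is not stated, so p measures the spread between these arrays, and RNA from a whole culture does not separate a change in every cell from a change in some cells. The 75th percentile ranged from 3782 to 7632 intensity units, and replicate 3 of both strains, on slide 2, had the lowest values. *PHO13* was at least 82.4-fold lower in YΔGP/XK/XI (the signal on each array of that strain was taken as no lower than the dimmest probe well above background), and *GRE3* was not well above background on any array. *XKS1* was well above background on all 6 arrays and fell by 26.8% in YΔGP/XK/XI (adjusted p = 0.0112). The *MAT*a-specific genes *STE2*, *MFA1* and *BAR1* were well above background on all 6 arrays, and so was *STE3*, a gene of the opposite mating type. Cross-hybridization between related genes was not tested.

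Of the 23 pathway enzymes 16 were not called. Those called higher in YΔGP/XK/XI lay from squalene epoxidation onward, and those called lower lay in the mevalonate steps. Outside the enzymes, an electron donor was called higher and 2 genes of sterol esterification and transport lower. *ERG3*, *ERG5*, *ERG4* and *ERG6* of the late steps, *ERG1* of the squalene steps and *CYB5*, an electron donor, rose. *HMG1* and *ERG12* of the mevalonate steps, the acyltransferase gene *ARE2* and the sterol-binding protein gene *HES1* fell. Thus 10 of the 31 genes were called, or 32.3%, where 29.6% of all genes on the array were called, so the share is near that of the array as a whole. In detail, 6 of 31 were called higher against 16.5% of all genes, and 4 of 31 were called lower against 13.1%. For 14 of the 31 genes (45.2%) no array of one strain lay within the range of the other, against 46.6% of all genes. An unadjusted p under 0.05 was found for 14 of the 31 genes (45.2%), against 42.1% of all genes. The split of all called genes depended on the scaling, with 55.8% higher by the 75th percentile and 42.9% by the median of each array. For the 31 genes median scaling gave 6 higher and 5 lower. The median log2 fold change of the 31 genes was -0.029, beside 0.0092 over all genes.

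**Figure D1:**
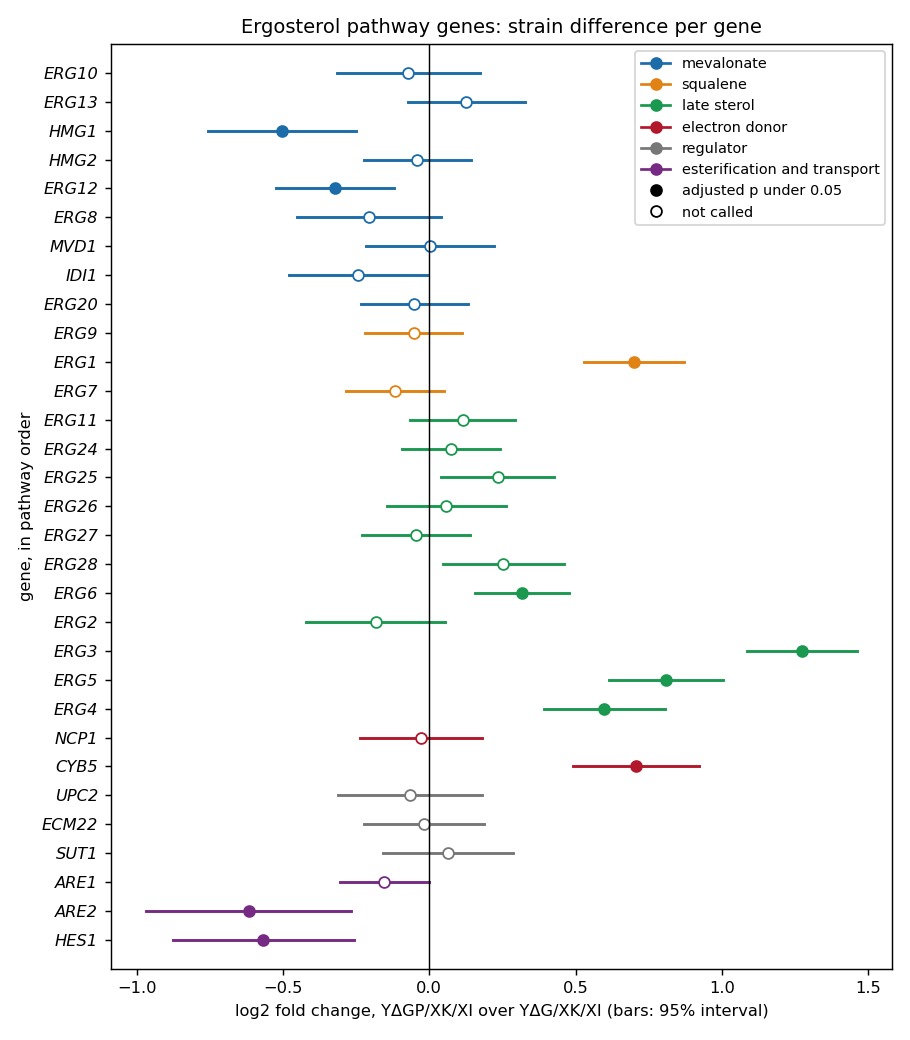
Log2 fold change of YΔGP/XK/XI over YΔG/XK/XI (x axis) for the 31 genes (y axis). Bars are 95% intervals from limma, and filled points mark an adjusted p under 0.05. The enzymes are in pathway order. The electron donors, regulators and genes of esterification and transport follow below them as listed and are not later steps. The 6 genes called higher lie in the rows from *ERG1* to *CYB5*, and *ERG3* has the highest value, 1.27.

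By step, the median log2 fold change was -0.072 for the 9 mevalonate genes, -0.053 for the 3 squalene genes and 0.23 for the 11 late sterol genes. The number called was 0 higher and 2 lower for mevalonate (22.2% called). For squalene it was 1 higher and 0 lower (33.3%), and for the late steps 4 higher and 0 lower (36.4%). Of all genes 29.6% were called, 16.5% higher and 13.1% lower. By sign alone, 7 of the 9 mevalonate genes were lower and 9 of the 11 late genes were higher. Of all 6256 genes, 3043 were lower and 3213 higher by sign. The median of the late genes on each array, relative to the mean of the control arrays for each gene, was 0.20, 0.13 and 0.26 in replicates 1, 2 and 3 of YΔGP/XK/XI and between -0.012 and -0.00026 in YΔG/XK/XI. That of the mevalonate genes was -0.084, -0.30 and -0.049 in YΔGP/XK/XI and between -0.029 and 0.038 in YΔG/XK/XI. Replicate 2 of YΔGP/XK/XI was thus the lowest array for the mevalonate genes. These medians are descriptions, and the difference between the steps was not tested. The late sterol median was 0.18 with median scaling, 0.15 within slide 1 (replicates 1 and 2 of both strains) and 0.30 within slide 2 (replicate 3). The mevalonate median was -0.13 with median scaling and -0.16 without replicate 1 of YΔGP/XK/XI. The squalene median was -0.11 with median scaling, -0.0075 without replicate 3 of YΔG/XK/XI, -0.0053 within slide 1 and -0.095 within slide 2.

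**Figure D2:**
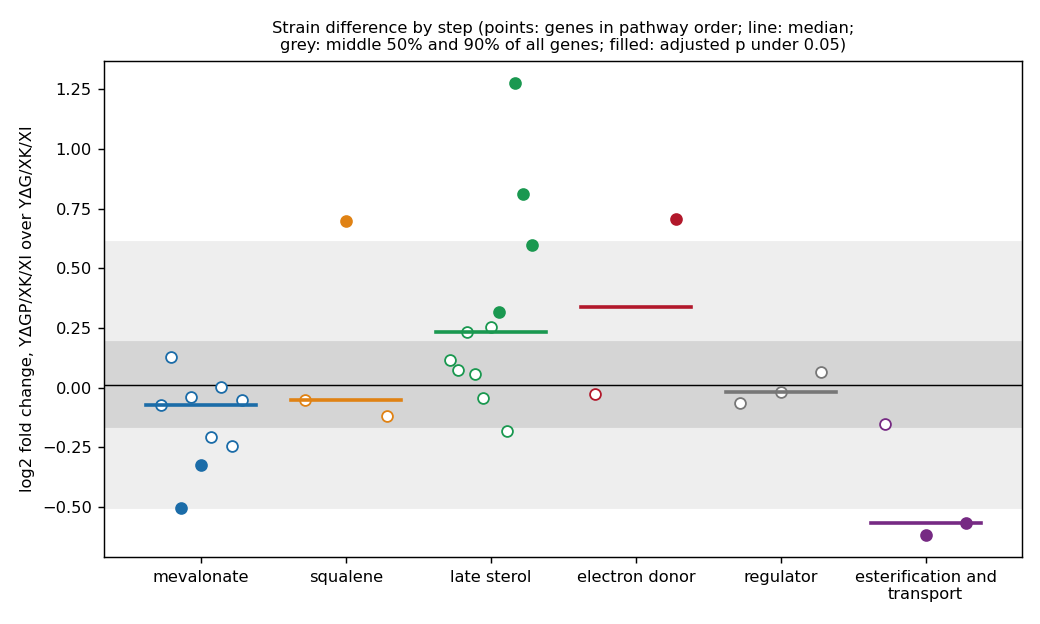
Log2 fold change of YΔGP/XK/XI over YΔG/XK/XI (y axis) by step (x axis), 1 point per gene, filled for an adjusted p under 0.05, with a line at the median of the step. Grey bands run from the 25th to the 75th percentile (-0.17 to 0.19) and from the 5th to the 95th percentile (-0.50 to 0.61) of all 6256 genes, and *ERG1*, *ERG3*, *ERG5* and *CYB5* lie above the wider band and *ARE2* and *HES1* below it. The thin line across the plot is the median of all genes.

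In the mevalonate steps the largest change was that of *HMG1* (YML075C), which encodes the more abundant form of HMG-CoA reductase in aerobic cells. Its normalized log2 signal was 2.42, 2.32 and 2.27 in replicates 1, 2 and 3 of YΔG/XK/XI and 1.94, 1.59 and 1.97 in those of YΔGP/XK/XI. All arrays of YΔGP/XK/XI lay below those of YΔG/XK/XI, with replicate 2 the lowest. *HMG1* fell by 29.4%, or -0.50 ± 0.11 on the log2 scale (fold change ± SE, adjusted p = 0.0110, limma). The difference was -0.60 within slide 1 and -0.30 within slide 2.

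*ERG12* (YMR208W), the gene of mevalonate kinase, had signals of 0.033, -0.066 and 0.00049 in YΔG/XK/XI and -0.21, -0.49 and -0.30 in YΔGP/XK/XI. The groups did not overlap, and replicate 2 of YΔGP/XK/XI was again the lowest. *ERG12* fell by 20.1%, or -0.32 ± 0.09 on the log2 scale (SE, adjusted p = 0.0255). When each of the 6 arrays was left out in turn, the call was lost 4 times, and without replicate 1 of YΔG/XK/XI the adjusted p was 0.0919.

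The other 7 mevalonate genes were not called. *ERG10*, for acetoacetyl-CoA thiolase, and *ERG13*, for HMG-CoA synthase, had log2 fold changes of -0.072 and 0.13. *HMG2*, for the second HMG-CoA reductase, had one of -0.041, with a 95% interval from -0.22 to 0.14. *ERG8*, for phosphomevalonate kinase, and *IDI1*, for isopentenyl diphosphate isomerase, had larger values of -0.21 and -0.24, and their adjusted p were 0.179 and 0.108. For *IDI1* the interval reached from -0.48 to -0.0084. *MVD1*, for mevalonate diphosphate decarboxylase, stood at 0.0017 and *ERG20*, for farnesyl diphosphate synthase, at -0.051, and both changed sign with quantile normalization.

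Of the squalene genes, only *ERG1* (YGR175C) was called. It encodes squalene epoxidase, the first enzyme of the pathway to use oxygen and the target of terbinafine. Its normalized log2 signal was -0.39, -0.42 and -0.34 in YΔG/XK/XI and 0.40, 0.31 and 0.23 in YΔGP/XK/XI. The gap between the groups was far wider than the spread within either. *ERG1* rose 1.62-fold, or by 0.70 ± 0.07 on the log2 scale (SE, adjusted p = 3.64e-04). On either side of it in the pathway, *ERG9*, for squalene synthase, had a log2 fold change of -0.053 (95% interval -0.22 to 0.11), and *ERG7*, for lanosterol synthase, had one of -0.12 (-0.29 to 0.049). *ERG7* was lower on each array of YΔGP/XK/XI than on any control array, but its adjusted p was 0.252.

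Among the late genes *ERG3* (YLR056W) changed most. It encodes the sterol desaturase that introduces a double bond into the ring system. The signals were 0.64, 0.56 and 0.75 in YΔG/XK/XI and 1.83, 1.95 and 1.99 in YΔGP/XK/XI, with no overlap. *ERG3* rose 2.42-fold, or by 1.27 ± 0.08 on the log2 scale (SE, adjusted p = 3.76e-05). By absolute log2 fold change it ranked 69 among the 6256 genes. Within slides 1 and 2 the difference was 1.29 and 1.24.

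*ERG5* (YMR015C) encodes the cytochrome P450 that desaturates the sterol side chain. Its signals were -0.78, -0.63 and -0.78 in YΔG/XK/XI and 0.16, 0.12 and -0.047 in YΔGP/XK/XI. Replicate 3 was the lowest array of YΔGP/XK/XI and still lay well above all arrays of the control strain. *ERG5* rose 1.75-fold, or by 0.81 ± 0.09 on the log2 scale (SE, adjusted p = 3.37e-04).

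*ERG4* (YGL012W) encodes the reductase of the last step, which yields ergosterol. The signals were 0.41, 0.44 and 0.58 in YΔG/XK/XI and 0.97, 1.22 and 1.03 in YΔGP/XK/XI, again without overlap. *ERG4* rose 1.51-fold (log2 fold change 0.60, standard error 0.09, adjusted p = 0.00189).

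*ERG6* (YML008C) encodes the methyltransferase that acts on zymosterol. Its signals were -0.13, -0.13 and -0.097 in YΔG/XK/XI and 0.26, 0.13 and 0.20 in YΔGP/XK/XI. The control arrays were nearly equal, and each array of YΔGP/XK/XI was higher. *ERG6* rose 1.25-fold (log2 fold change 0.32, standard error 0.07, adjusted p = 0.0110).

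*ERG2*, for the sterol isomerase that acts between *ERG6* and *ERG3*, did not share this direction. Its signals were 2.43, 2.29 and 2.03 in YΔG/XK/XI and 2.11, 2.05 and 2.04 in YΔGP/XK/XI. The groups overlapped through replicate 3 of YΔG/XK/XI, and the log2 fold change of -0.18 was not called (adjusted p = 0.213). Without that replicate it was -0.29 (adjusted p = 0.0359). The difference was -0.28 within slide 1 and 0.011 within slide 2.

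**Figure D3:**
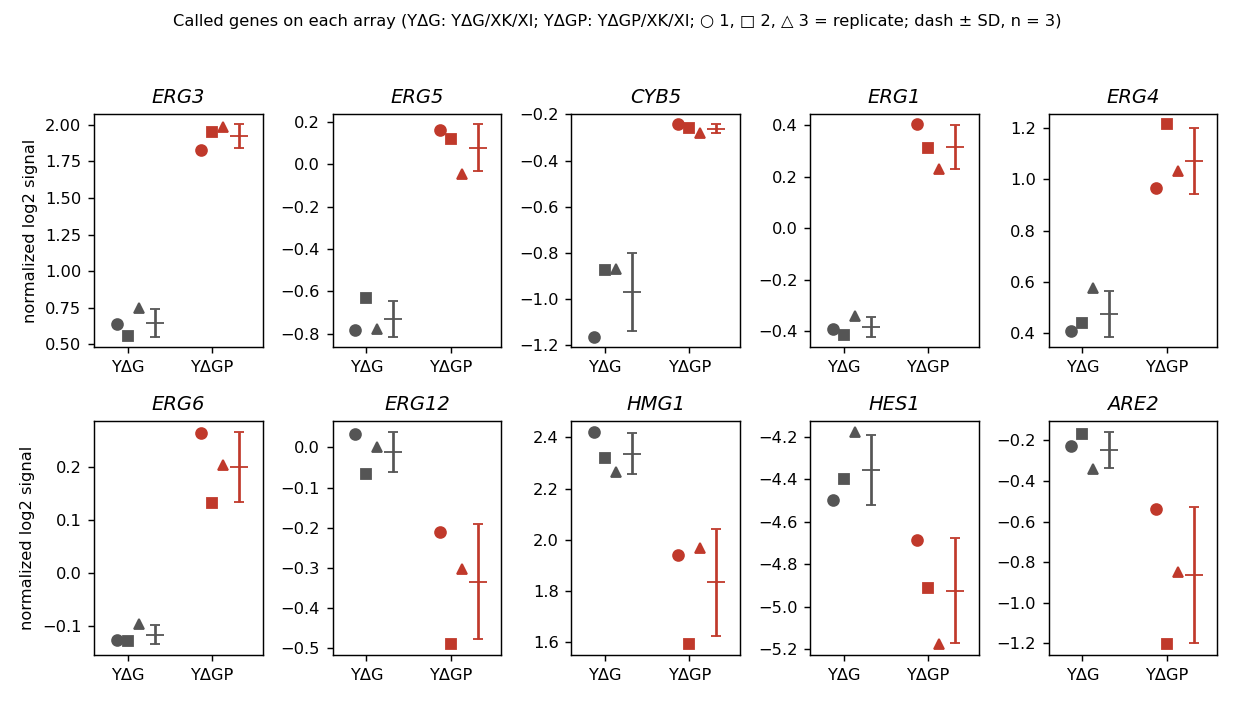
Normalized log2 signal (y axis, with its own range in each panel) of the 10 called genes in the 3 replicates of each strain, with the mean and SD of each strain beside the points. In none of the panels do the strains overlap, and replicate 2 of YΔGP/XK/XI is the lowest array for *HMG1*, *ERG12* and *ARE2*.

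The 6 remaining late genes, which act between lanosterol and zymosterol, were not called. *ERG11*, for the lanosterol demethylase that azole drugs inhibit, had a log2 fold change of 0.11 (95% interval -0.066 to 0.29), and *ERG24*, for the reductase that follows it, had one of 0.074. The methyl oxidase gene *ERG25* and *ERG28*, for the protein that holds the demethylation complex together, came nearest to the threshold. *ERG25* had signals between 2.09 and 2.11 in YΔG/XK/XI and between 2.23 and 2.49 in YΔGP/XK/XI, and its log2 fold change of 0.23 had an adjusted p of 0.0687. A block for the slide brought it past the threshold, at an adjusted p of 0.0443. For *ERG28* the log2 fold change was 0.25 (adjusted p = 0.0659), and the call was gained at 0.0446 when the variance was allowed to follow intensity. Without replicate 2 of YΔGP/XK/XI both passed the threshold, at 0.0457 for *ERG25* and 0.0252 for *ERG28*. *ERG26* and *ERG27*, for the decarboxylase and the ketoreductase of the same complex, had log2 fold changes of 0.058 and -0.044. The median of these 6 genes was 0.094. Of the 6, 0 were called (against 29.6% of all genes), and 2 had an unadjusted p under 0.05 (limma, 33.3%, against 42.1%). For the 5 genes from *ERG6* to *ERG4* the median was 0.60, with 4 called higher (80%, against 16.5% of all genes). The same 4 had an unadjusted p under 0.05 (limma, 80%, against 42.1% of all genes). This division of the late genes was made after their values were seen, and no test was applied to it.

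The electron donors did not move together. *CYB5* (YNL111C) encodes cytochrome b5, an electron donor for sterol desaturation. Its signals were -1.16, -0.87 and -0.87 in YΔG/XK/XI and -0.24, -0.26 and -0.28 in YΔGP/XK/XI. The arrays of YΔGP/XK/XI were nearly equal, and replicate 1 was the lowest of the control arrays. *CYB5* rose 1.63-fold (log2 fold change 0.71, standard error 0.09, adjusted p = 0.00106). *NCP1*, for the NADPH reductase that serves the cytochromes P450 and squalene epoxidase, had a log2 fold change of -0.029, with an interval from -0.24 to 0.18.

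No regulator gene was called, and none had an unadjusted p under 0.05 (limma, 0 of 3, against 42.1% of all genes). *UPC2* and its paralog *ECM22*, the zinc cluster activators of *ERG* genes, had log2 fold changes of -0.066 and -0.018, with intervals from -0.31 to 0.18 and from -0.22 to 0.19. *SUT1*, for a transcription factor of sterol uptake under low oxygen, had one of 0.065 (-0.16 to 0.29). The signals of *UPC2* were -0.74, -0.58 and -0.54 in YΔG/XK/XI and -0.66, -0.88 and -0.51 in YΔGP/XK/XI, so the strains overlapped. The activity of these factors was not measured.

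The 3 genes of sterol esterification and transport were all lower in YΔGP/XK/XI by sign, as were 3043 of all 6256 genes. Of the 3, 2 were called lower (66.7%, against 13.1% of all genes). *ARE2* (YNR019W) encodes the acyltransferase that makes most steryl esters in aerobic cells. Its signals were -0.23, -0.17 and -0.34 in YΔG/XK/XI and -0.54, -1.20 and -0.85 in YΔGP/XK/XI. The groups did not overlap, but the arrays of YΔGP/XK/XI were widely spread. *ARE2* fell by 34.8%, or -0.62 ± 0.15 on the log2 scale (SE, adjusted p = 0.0177). The call was lost when replicate 1 or replicate 2 of YΔG/XK/XI was left out, at adjusted p of 0.0584 and 0.0570. *ARE1*, for the second acyltransferase, had a log2 fold change of -0.15 (adjusted p = 0.1145), and with median scaling it was called at -0.21 (adjusted p = 0.0391).

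*HES1* (YOR237W), a member of the family of oxysterol-binding proteins, was the dimmest of the 31 probes, with intensities between 105 and 338 units. Every other probe of the list had at least 2102 units on each array. The signals of *HES1* were -4.50, -4.40 and -4.18 in YΔG/XK/XI and -4.68, -4.91 and -5.18 in YΔGP/XK/XI. It fell by 32.5% (log2 fold change -0.57, standard error 0.13, adjusted p = 0.0149). The size of this change was less certain than the call, since it was -0.35 within slide 1, -0.9997 within slide 2 and -0.34 after normexp background correction.

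For the 3 paralog pairs the difference between the signals was compared between the strains with an exact two-sided permutation test, which cannot give a p below 0.1 with 3 arrays per strain. In YΔG/XK/XI *HMG1* minus *HMG2* was 0.98 ± 0.13, against 0.52 ± 0.30 in YΔGP/XK/XI (SD, n = 3 each, exact p = 0.1, adjusted over the 3 pairs 0.15). *ARE1* minus *ARE2* was 0.68 ± 0.097 and 1.15 ± 0.31 (SD, n = 3 each, exact p = 0.1, adjusted 0.15). In both pairs the strains did not overlap, except that *ARE1* minus *ARE2* did after normexp background correction (exact p = 0.2). For *UPC2* minus *ECM22* the values were 0.078 ± 0.15 and 0.030 ± 0.061 (exact p = 0.6). These differences serve only to compare the strains, as levels of different probes are not comparable.

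All 10 called genes differed in the same direction on slides 1 and 2, which the absence of overlap already fixes. With the slide as a block all 10 remained called, and the largest adjusted p was 0.0238, for *ERG12*. Under the 16 alternatives 8 of the 10 were called each time, and *ERG12* and *ARE2* were the exceptions.

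**Figure D4:**
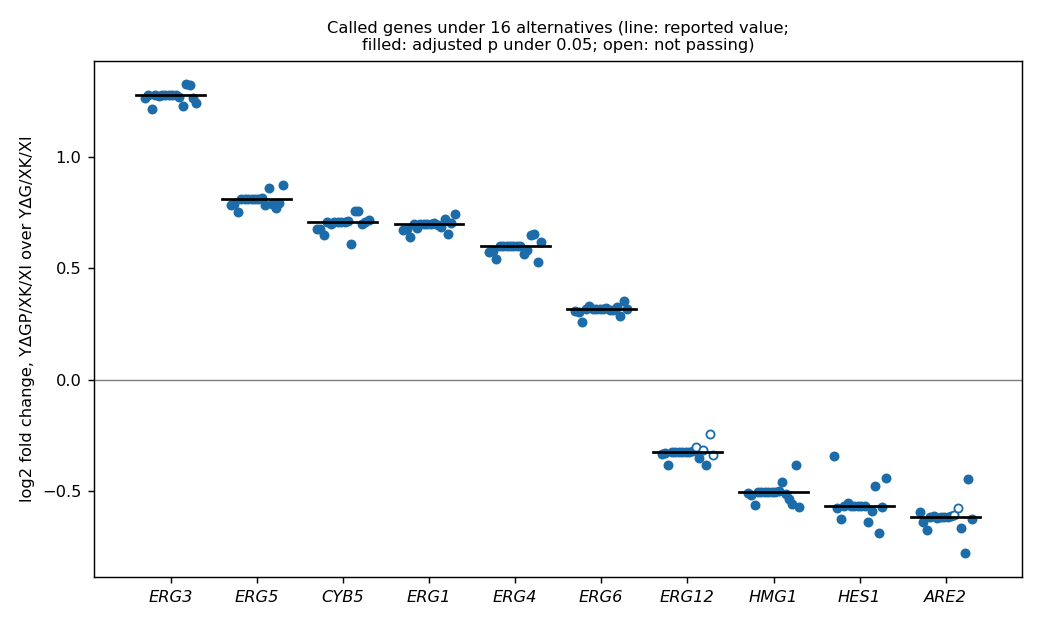
Log2 fold change of YΔGP/XK/XI over YΔG/XK/XI (y axis) of each called gene (x axis) under 16 alternatives of processing, fit or left-out array, with a line at the reported value and open points where the adjusted p was 0.05 or above. Open points occur for *ERG12* and *ARE2*. No point crosses 0, which the absence of overlap fixes in advance for the left-out arrays.

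A further 43 genes of sterol uptake, storage, transfer and regulation, and of the isoprenoid branches, were read from the same fit. Only 4 of them were called (9.3%, against 29.6% of all genes), 2 higher and 2 lower, and 9 had an unadjusted p under 0.05 (20.9%, against 42.1% of all genes). *YEH1*, for a steryl ester hydrolase, had signals of -1.63 ± 0.092 in the control and -1.22 ± 0.088 after deletion (SD, n = 3 each) and so rose by 0.41 on the log2 scale (adjusted p = 0.00724, limma). The other hydrolase genes *YEH2* and *TGL1* had values of -0.038 and 0.0999 and were not called. *YEH1* thus moved opposite to *ARE2*, whose product makes the esters that the hydrolases cleave, while *ARE1* was not called. Steryl esters were not measured in these files, and a link between *YEH1* and *ARE2* was not tested.

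Among the 8 genes that draw on farnesyl diphosphate or its precursors, *COX10*, for the heme A farnesyltransferase, rose (log2 fold change 0.40, adjusted p = 0.0132). *MOD5*, for a tRNA isopentenyltransferase, and *RAM2*, for a subunit of protein farnesyltransferase, fell (log2 fold changes -0.33 and -0.27, adjusted p = 0.0234 and 0.0165). Leaving out each of the 6 arrays in turn removed the call of *MOD5* 4 times and that of *RAM2* 2 times. Neither was called when replicate 1 of YΔG/XK/XI was left out, at adjusted p of 0.0854 for *MOD5* and 0.0618 for *RAM2*.

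Of the 15 sterol transfer genes and the 8 genes of reductase stability and cytochrome partners, 0 were called by limma, with 2 (13.3%) and 1 (12.5%) at an unadjusted p under 0.05, against 42.1% of all genes. The oxygen and heme regulator genes *HAP1*, *ROX1*, *MOT3* and *SUT2* were not called, and 0 of the 4 had an unadjusted p under 0.05 (limma), with the same 42.1% over all genes. Their log2 fold changes lay between -0.18 and 0.19. None of the 5 genes of sterol uptake and efflux was called (limma), and 2 had an unadjusted p under 0.05, a share of 40% that is near the 42.1% of all genes. Of these genes *AUS1* and *PDR11*, which encode transporters of sterol from the medium, had log2 fold changes of -0.12 and -0.16. *DAN1*, a cell wall gene of anaerobic cells, was near the background, with signals of -7.08, -7.20 and -5.56 in YΔG/XK/XI and -7.29, -7.43 and -7.75 in YΔGP/XK/XI. It was well above background on 3 arrays of YΔG/XK/XI and 1 of YΔGP/XK/XI, and its high mean in YΔG/XK/XI came from replicate 3.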

How the data were processed

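RNA from 3 runs of each strain was hybridized to single-colour Agilent *S. cerevisiae* arrays. The authors deposited the spot intensities of Agilent Feature Extraction 10.1.1.1, background-subtracted and not scaled between arrays, and a table of log2 values. Set against the intensities, that table held the same values after subtraction of the 75th percentile per array and of the median per gene (r of 0.9999 or above). The genome build of the probes is not given in the sources used here, and no coordinates or sequences were used.

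Outlier spots were left out, log2 intensities of the 7 spots of a probe were averaged, and the 75th percentile of the gene spots of the array was subtracted. The scanner flag for signal well above background had to be set on at least 4 spots of a probe. Genes were named through systematic names in the RefSeq R64 gene table, in which all 31 genes and all 43 further genes were found. The fit of strain used limma 3.58.1 (R 4.3.3), without covariates. It was also run on simulated data with 200 changed genes, and the outcome is not reported here. The named genes are the 31 genes and, of the further genes, up to 10 called ones with the largest change. Uncalled further genes (*YEH2*, *TGL1*, *AUS1*, *PDR11*, *DAN1* and the oxygen and heme regulators) and the divisions of the list by reaction were chosen after their values were seen. The genes and lists were chosen with earlier results of these data known. The alternatives were normexp background correction (offset 50), quantile normalization, median scaling, dim probes left out, outlier spots kept, an intensity trend, the median over spots, the replicate or the slide as a block, the deposited table, and each array left out. Each slide was also taken alone. With 3 arrays per strain, the number of arrays limits the precision.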

Additional observations from a re-analysis of the deposited data

How the results depend on the processing

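Under 16 alternatives the 10 called genes gave 160 values, of which 154 stayed called in the same direction and 6 lost the call, all of these with an array left out. The 21 other genes gave 336 values, of which 6 passed the threshold and 21 changed sign. With an array left out, 6 to 8 of the 31 genes were called higher, 2 to 4 lower, and 1178 to 1661 of all genes were called. The counts of 2 and 1178 came without replicate 1 of YΔG/XK/XI, where *ERG12* and *ARE2* were not called. The median of the 31 genes was 0.033 without replicate 2 of YΔGP/XK/XI and 0.032 within slide 2. The further genes had 2 to 5 calls with an array left out, 7 with quantile normalization and 8 with the replicate block, against 4, and the cause was not tested. The replicate block gave 2362 genes in all, with 6 higher and 4 lower among the 31. The slide block gave 2301, with 7 higher and 4 lower. Same-numbered arrays correlated in their deviations from the strain means at 0.0656, 0.301 and 0.415. Replicates 2 and 3 of YΔGP/XK/XI correlated best with the same-numbered control array, but replicate 1 did so with replicate 2 of YΔG/XK/XI (0.13). The arrays were therefore not taken as pairs. Replicate 3 was also the only replicate on slide 2.

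No called gene changed sign under these alternatives or within a slide. For left-out arrays and single slides the absence of overlap fixes this in advance. The intensity trend, the blocks and the omission of dim probes leave the log2 fold change of a gene as it was. For these settings only the adjusted p could differ. *MVD1* had a log2 fold change of -0.034 with quantile normalization, -0.057 with median scaling and -0.0057 with outlier spots kept. *ERG20* reached 0.015 with quantile normalization and *ERG26* -2.66e-05 with median scaling. With an array left out, the range was -0.16 to 0.044 for *ERG10*, -0.045 to 0.077 for *MVD1*, -0.11 to 0.0062 for *ERG20*, -0.014 to 0.13 for *ERG26*, -0.083 to 0.025 for *ERG27*, -0.073 to 0.039 for *NCP1*, -0.15 to 0.033 for *UPC2*, -0.083 to 0.047 for *ECM22* and -0.0049 to 0.13 for *SUT1*. Within slide 1 the sign also changed for *HMG2* (0.028) and *MVD1* (-0.062), and within slide 2 for *ERG13* (-0.011), *ERG2* (0.011), *ERG27* (0.039), *UPC2* (0.032) and *ECM22* (0.048). Normexp moved *HES1* to -0.34, and it adds an offset that weighs most on dim probes.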

Other observations

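The pathway enzymes can also be divided by whether they use molecular oxygen, a division made here after the values were seen and given without a test. Squalene epoxidase (*ERG1*), the lanosterol demethylase (*ERG11*), the methyl oxidase (*ERG25*) and the desaturases *ERG3* and *ERG5* use it. All 5 had a positive log2 fold change, as had 3213 of all 6256 genes. Of the 5, 3 were called higher (60%, against 16.5% of all genes), and their median was 0.70. The median of these 5 genes on each array, relative to the control mean of each gene, was 0.79, 0.69 and 0.61 in replicates 1, 2 and 3 of YΔGP/XK/XI and between -0.033 and 0.043 in YΔG/XK/XI. Of the other 18 enzymes 7 had a positive value, and the median was -0.048. Among them 2 were called higher (*ERG4* and *ERG6*) and 2 lower (*HMG1* and *ERG12*), or 22.2%, against 29.6% of all genes. The authors describe the fermentation as oxygen-limited, and oxygen in the bottles was not measured in these files.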
